A study of Mus musculus with 3 samples.

Results

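The B cell receptor kinases and adaptors carry the antigen receptor's signal into the B cell, and are grouped here with Fc receptor-like genes. The members were chosen by name: Lyn, Blk, Syk and Btk (kinases), Blnk and Bank1 (adaptors), Plcg2 and Prkcb (enzymes of the lipid branch), and Fcrl1 and Fcrla (Fc receptor-like proteins). The choice was made with earlier results of these data known. Each probe whose gene symbol named a member was read on all 3 arrays, which gave 9 of the 10 members, out of 16390 genes with a named probe. Lyn had no named probe and is not analysed here. Each of the other 9 genes had 1 probe, detected on all 3 arrays. The arrays held Venus+ CD138hi cells of the bone marrow, Venus+ CD138hi cells of the spleen, and B220+ cells of the spleen. All were freshly sorted from mice carrying the IL-10 Venus reporter, whose Venus fluorescence marks expression of Il10, so the B220+ population came from reporter mice as well. CD138 is the surface proteoglycan syndecan-1, which plasma cells display, and B220 is a form of CD45 found on B cells. The sources used here do not give the mice's age, strain background or any treatment, or how many animals went into a sort.

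Binding of antigen to the receptor leads Lyn and Blk, kinases of the Src family, to phosphorylate the tails of the receptor's Cd79a and Cd79b chains. Syk docks there and phosphorylates the adaptor Blnk, on which Btk and the phospholipase Plcg2 assemble; the lipid products of Plcg2 release calcium and activate protein kinase C beta, the product of Prkcb, which leads to NF-kB. Bank1 is a scaffold that binds Lyn and calcium channels of internal stores, Fcrl1 is a receptor of the B cell surface, and Fcrla is a related protein that stays inside B cells. Plasma cells are known for producing antibody and for switching off much of the B cell programme.

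With 1 array per population there is no replicate spread and no test, so the differences below have no replicate check and an effect of the array cannot be told apart from one of the population. The values are normalized signals, in which the median of each array's detected probes is set to 25, and a probe is set only against itself on another array. A gene is counted as lower or higher when both arrays detected it and its signals differed at least 2-fold. The value after ± is a spot error, which combines the spread of blank spots and of repeated control spots on both arrays and holds no biological variation. Between 15857 and 17239 of 23473 probes were detected on an array. Of the plasma cell markers, Sdc1, which encodes CD138, had signals of 219.5 in marrow Venus+ and 127.9 in spleen Venus+ cells, against 2.49 in B220+ cells. The B cell markers summed to 4206 in marrow Venus+ cells (5 of 7 detected, Pax5 and Cr2 not), to 10149 in spleen Venus+ cells (6 of 7, Cr2 not) and to 27626 in B220+ cells (7 of 7). In sorted bulk cells, fewer cells of a type and less RNA per cell cannot be told apart. Markers of other blood cells also differed between the arrays. Neutrophil markers summed to 213.9 in marrow Venus+ cells (7 of 8 detected, Csf3r not), 25.7 in spleen Venus+ cells (3 of 8, S100a9, Camp, Ltf, Mpo and Csf3r not) and 5062 in B220+ cells (8 of 8). Of the 7 detected in both marrow Venus+ and B220+ cells, 6 were at least 2-fold lower in the marrow and 1 was higher (log2 ratio 3.75). The 3 detected in both spleen populations were lower in Venus+ cells. Monocyte and macrophage markers summed to 274.5 in marrow Venus+ cells, 148.5 in spleen Venus+ cells and 59.7 in B220+ cells (4, 3 and 4 of 6, Cd14 on no array). T cell markers summed to 1177 in marrow Venus+ cells and 785.8 in spleen Venus+ cells (9 of 9 in both), against 46.2 in B220+ cells (6 of 9, Cd3e, Cd3g and Trat1 not).

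The promoters of 4 members are printed here because these genes mark the ends of the range described below: Fcrl1, Prkcb and Bank1 had the lowest signals in marrow Venus+ cells relative to B220+ cells, and Fcrla differed least. Each is the RefSeq sequence of GRCm38.p6 from 250 bases before to 50 bases after the gene's start, 5′ to 3′ on the gene's strand. Fcrl1 lies at chr3:87376137-87376436 (+ strand), Prkcb at chr7:122288875-122289174 (+ strand), Bank1 at chr3:136326017-136326316 (- strand) and Fcrla at chr1:170927534-170927833 (- strand). Capitals mark matches, on either strand, to the octamer ATGCAAAT read by the POU factors of B cells, to GAGGAA, a core of ETS-family sites, and to GNGAAAG, a core of sites of PRDM1, the repressor that directs plasma cell differentiation.
Fcrl1: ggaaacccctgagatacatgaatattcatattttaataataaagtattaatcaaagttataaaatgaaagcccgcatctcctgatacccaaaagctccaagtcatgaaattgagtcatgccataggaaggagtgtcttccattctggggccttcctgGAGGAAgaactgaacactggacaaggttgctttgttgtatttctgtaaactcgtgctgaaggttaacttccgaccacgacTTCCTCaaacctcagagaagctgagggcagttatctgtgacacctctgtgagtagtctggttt
Prkcb: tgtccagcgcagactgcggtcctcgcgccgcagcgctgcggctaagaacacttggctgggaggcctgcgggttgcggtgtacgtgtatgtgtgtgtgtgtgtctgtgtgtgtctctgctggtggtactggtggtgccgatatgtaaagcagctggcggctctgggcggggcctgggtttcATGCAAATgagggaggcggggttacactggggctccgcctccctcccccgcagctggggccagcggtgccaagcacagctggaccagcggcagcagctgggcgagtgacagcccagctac
Bank1: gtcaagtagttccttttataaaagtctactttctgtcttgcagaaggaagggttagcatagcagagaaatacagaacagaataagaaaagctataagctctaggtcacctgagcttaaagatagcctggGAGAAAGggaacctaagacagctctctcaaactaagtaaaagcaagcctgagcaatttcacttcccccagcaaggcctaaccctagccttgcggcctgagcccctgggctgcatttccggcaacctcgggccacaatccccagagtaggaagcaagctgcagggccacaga
Fcrla: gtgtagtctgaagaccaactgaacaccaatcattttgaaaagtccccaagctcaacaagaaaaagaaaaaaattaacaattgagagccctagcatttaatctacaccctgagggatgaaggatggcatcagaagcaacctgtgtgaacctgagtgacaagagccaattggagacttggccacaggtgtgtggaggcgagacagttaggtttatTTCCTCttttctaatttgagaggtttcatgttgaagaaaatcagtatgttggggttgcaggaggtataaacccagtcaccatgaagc
The octamer stands in the Prkcb promoter 70 bases before the start; it was found in 1.74% of 32851 RefSeq mouse promoters of this length and in 2 of the 8 members with an entry, Prkcb and Blnk. GAGGAA was found in 28.3% of all promoters and in 4 of the 8 members, Fcrl1, Fcrla, Btk and Syk (the second of the 2 entries of Syk; the first holds none), a count of genes beside a share of promoters. GNGAAAG was found in 22.6% of all promoters and in 2 of the 8 members, 121 bases before the start of Bank1 and 21 bases before that of Btk. Matches to the different motifs may share bases. The promoters also differed in composition: GC content was 42.0% in Fcrl1, 42.7% in Fcrla, 48.7% in Bank1 and 65.3% in Prkcb, against a median of 52.7% over all promoters. These are matches of letters and were not set against any measurement of binding.

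The 2 Fc receptor-like genes lay at opposite ends of the range for marrow Venus+ over B220+ cells. Fcrl1 had a signal of 10.4 in marrow Venus+ cells and 54.6 in spleen Venus+ cells, against 503.5 in B220+ cells. It was lowest in marrow Venus+, intermediate in spleen Venus+ and highest in B220+ cells. Its log2 ratio over B220+ cells was -5.59 ± 0.21 in the marrow (48.2-fold lower) and -3.20 ± 0.14 in the spleen (9.22-fold lower), and 18 of 10813 genes had a lower ratio in the marrow comparison. With normexp, a correction that uses the recorded local background and then adds an offset, the ratios were -2.88 and -2.15. The offset compresses the ratios of dim probes. Normexp and the subtraction of local background use the same recorded background, so they are not separate checks. Fcrla had signals of 2057 in marrow Venus+, 1512 in spleen Venus+ and 2167 in B220+ cells. Its 3 signals lay close together, with a log2 ratio over B220+ cells of -0.08 ± 0.13 in the marrow, which was above 0 under 3 of 8 other settings (the scaling to common probes among them), and of -0.52 ± 0.14 in the spleen.

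Among the kinases, Blk differed between the 2 Venus+ populations. Blk, the Src-family kinase found mostly in B cells, had a signal of 48.3 in marrow Venus+ cells and 981.5 in spleen Venus+ cells, against 718.0 in B220+ cells. The marrow array was low and both spleen arrays were high. Its log2 ratio was -3.89 ± 0.14 for marrow Venus+ over B220+ cells (14.9-fold lower) and -4.35 ± 0.12 for marrow over spleen Venus+ cells (20.3-fold lower); in the last comparison 12 of 11352 genes had a lower ratio. For spleen Venus+ over B220+ cells the log2 ratio was 0.45 ± 0.14. It was -0.29 with normexp background correction and -0.57 with the local background subtracted, so its direction there depends on the background correction. The marrow ratios of Blk stayed past 2-fold under all 8 other settings, but with normexp they were -1.98 over B220+ and -1.69 over spleen Venus+ cells. The local background that the scanner recorded for Blk was 1089 in spleen Venus+ cells (spot 1301) and 1050 in B220+ cells (spot 1414), close to the spot itself. Over detected probes, the median local background was 49.1 and 61.7 on these arrays. Subtracting the value recorded for Blk may therefore remove signal, which was not tested.

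Btk and Syk moved less. Btk, the Tec-family kinase that activates Plcg2, had signals of 90.6 in marrow Venus+ and 166.4 in spleen Venus+ cells, against 450.9 in B220+ cells. The order was the same as for Fcrl1, over a narrower range. Its log2 ratio over B220+ cells was -2.31 ± 0.13 in the marrow and -1.44 ± 0.14 in the spleen; with normexp the values were -1.51 and -0.72, the last under 2-fold. Syk, the kinase that docks on the phosphorylated receptor, had signals of 48.7 in marrow Venus+ and 66.5 in spleen Venus+ cells, against 88.3 in B220+ cells. Its log2 ratio over B220+ cells was -0.86 ± 0.14 in the marrow and -0.41 ± 0.14 in the spleen, in neither case 2-fold. Btk, Syk, Plcg2 and Prkcb are also expressed by neutrophils, whose summed markers were highest on the B220+ array, and by monocytes. The summed monocyte signal was carried mostly by Cd68 (240.8 in marrow Venus+ and 111.2 in spleen Venus+ cells, against 33.0 in B220+ cells), while Csf1r was nearly level (27.3 in marrow Venus+ and 24.9 in spleen Venus+ cells, against 23.8 in B220+ cells). The part of either cell type in these ratios was not tested.

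**Figure D1:**
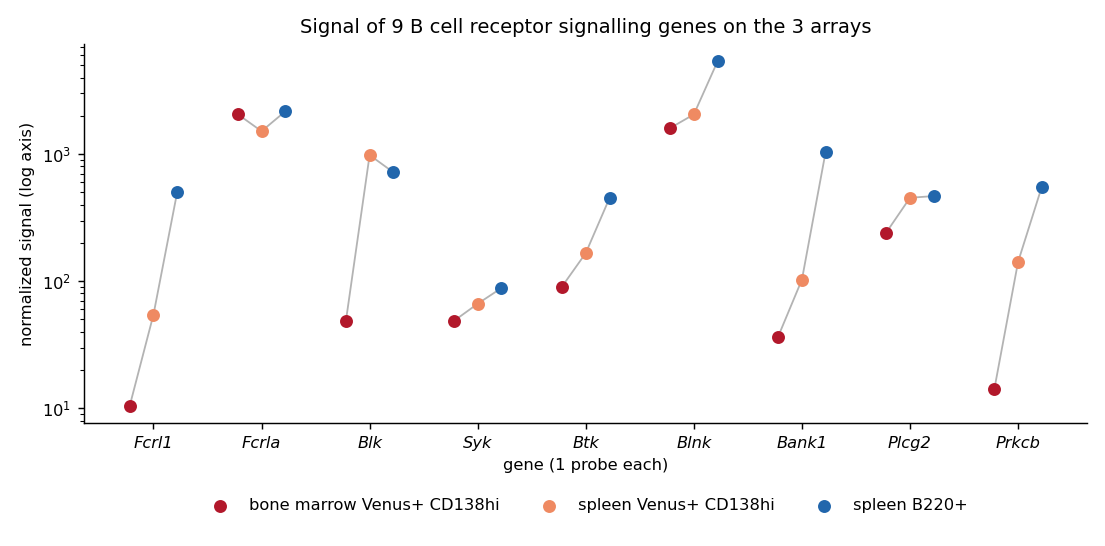
Normalized signal (log axis) of the 9 measured genes, 1 probe each, in bone marrow Venus+ CD138hi, spleen Venus+ CD138hi and spleen B220+ cells, 1 array per point. Fcrl1, Prkcb, Bank1 and Btk step down in the Venus+ arrays, Blk is low in the marrow array alone (48.3, against 981.5 and 718.0 in the spleen arrays), and Fcrla and Syk vary less; points of different genes are not comparable.

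The 2 adaptors were both lower in Venus+ cells. Bank1 had a signal of 36.6 in marrow Venus+ cells and 102.8 in spleen Venus+ cells, against 1046 in B220+ cells. Both Venus+ arrays lay far below the B220+ array. Its log2 ratio over B220+ cells was -4.84 ± 0.14 in the marrow (28.6-fold lower) and -3.35 ± 0.14 in the spleen (10.2-fold lower), the lowest spleen ratio of the 9 genes; with normexp the values were -3.50 and -2.54. Blnk, the adaptor on which Btk and Plcg2 meet, had signals of 1599 in marrow Venus+ and 2049 in spleen Venus+ cells, against 5372 in B220+ cells. The Venus+ arrays were similar and the B220+ array was higher. Its log2 ratio over B220+ cells was -1.75 ± 0.13 in the marrow and -1.39 ± 0.14 in the spleen. These ratios depend on the background correction: with the local background subtracted they were 0.33 and -0.50, and with normexp -0.01 and -0.23. The recorded local background of Blnk was 1483 in marrow Venus+ cells (spot 1740), 2466 in spleen Venus+ cells (spot 2673) and 9961 in B220+ cells (spot 10299). Over detected probes, the median local background was 50.7, 49.1 and 61.7 on these arrays. The value recorded for Blnk was thus close to its spot, and subtracting it may remove signal. Whether it does was not tested.

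The 2 lipid-branch enzymes differed from each other. Prkcb had a signal of 14.1 in marrow Venus+ cells and 141.7 in spleen Venus+ cells, against 554.0 in B220+ cells. The 3 arrays were well apart, in the same order as for Fcrl1. Its log2 ratio was -5.30 ± 0.18 for marrow Venus+ over B220+ cells (39.3-fold lower), -1.97 ± 0.14 for spleen Venus+ over B220+ cells (3.91-fold lower) and -3.33 ± 0.16 for marrow over spleen Venus+ cells (10.1-fold lower). With normexp these ratios were -1.99, -1.15 and -0.84, the last under 2-fold. Its probe carries the older symbol Prkcb1 and was matched through it. Plcg2 had signals of 241.0 in marrow Venus+ and 452.9 in spleen Venus+ cells, against 467.0 in B220+ cells. The spleen arrays were nearly level and the marrow array was lower, as for Blk but over a far narrower range. Its log2 ratio was -0.95 ± 0.13 for marrow Venus+ over B220+ cells, just under 2-fold, and -0.04 ± 0.14 for spleen Venus+ over B220+ cells, a sign that turned under 3 of 8 settings, quantile normalization among them. The marrow ratio passed 2-fold with normexp (-1.43) and with the local background subtracted (-1.42).

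Counted over the 9 genes, 6 were at least 2-fold lower in marrow Venus+ than in B220+ cells (Fcrl1, Prkcb, Bank1, Blk, Btk and Blnk), where 30.7% of all 10813 genes detected on both arrays were lower. None was at least 2-fold higher, where 22.4% of all genes were. Their median log2 ratio was -2.31, against -0.24 over all genes, and so -2.07 relative to it. For spleen Venus+ over B220+ cells, 5 of the 9 were lower (Bank1, Fcrl1, Prkcb, Btk and Blnk), where 16.5% of all genes were lower and 15.7% higher, and 0 were higher; the median was -1.39, against -0.02 over all genes. For marrow over spleen Venus+ cells, 4 of the 9 were lower (Blk, Prkcb, Fcrl1 and Bank1), where 15.2% of all genes were lower and 4.33% higher, and 0 were higher; the median was -0.91, against -0.17 over all genes. The comparisons share arrays, so their counts are not independent. The members were chosen with earlier results of these data known, so the counts beside the all-gene shares are a description only. Scaling to the probes detected on all 3 arrays moved the all-gene median of the marrow comparison to 0.05, and the counts were again 6, 5 and 4. With normexp they were 6, 3 and 2: Plcg2 entered and Blnk left the first, Btk and Blnk left the second, and the third held Blk and Plcg2.

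**Figure D2:**
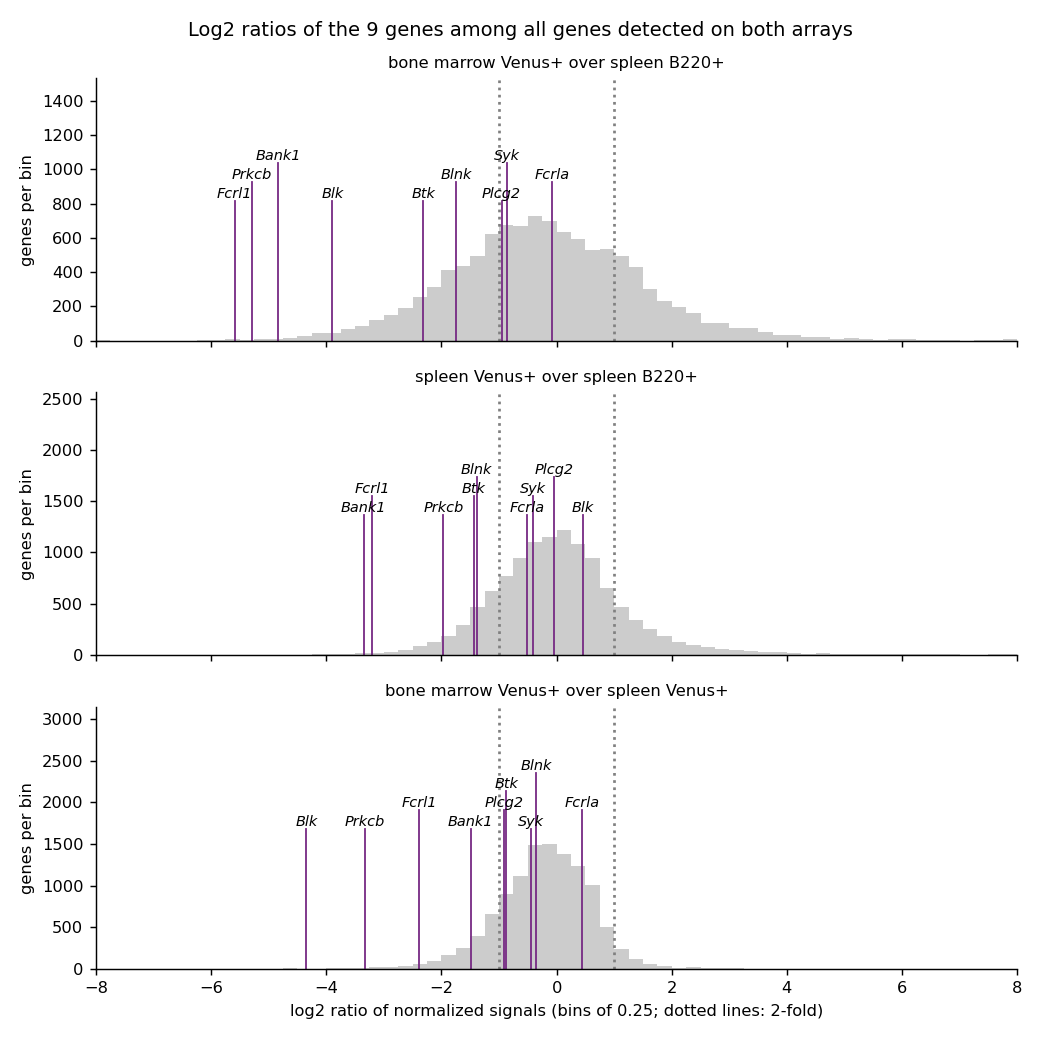
Number of genes per bin of log2 ratio among all genes detected on both arrays (grey), with the 9 genes as vertical lines of arbitrary height and 2-fold as dotted lines, for marrow Venus+ over B220+, spleen Venus+ over B220+ and marrow over spleen Venus+ cells. Fcrl1, Prkcb and Bank1 lie in the lower tail of the top panel, and Blk is in the lower tail of the top and bottom panels (-3.89 and -4.35) but right of 0 in the middle one (0.45).

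Few genes of the array followed Blk, and the same held for Prkcb, Fcrl1 and Bank1. Over the log2 ratios of both Venus+ populations to B220+ cells, compared for 10769 genes detected on all 3 arrays, the gene most like Blk was Fcmr, the Fc receptor for IgM on B cells, with ratios of -3.78 in the marrow and 0.18 in the spleen; the larger of its 2 differences from Blk was 0.27, and 0 genes lay within 0.25. Prxl2a and Cd83, a surface protein of activated B cells and dendritic cells, came next at 0.59 and 0.61. For Prkcb the nearest gene was Pecam1, an adhesion molecule with inhibitory motifs (0.17), followed by Tmem229b (0.33) and H2-Aa, a chain of MHC class II (0.34). For Fcrl1 the nearest genes were Sgms1 (0.19), Il10ra, a chain of the IL-10 receptor (0.24), and Tnfaip8l2 (0.39). For Bank1 they were Gadd45g (0.13), Ap1s2 (0.13) and Stk17b (0.24). Prkcb had 1 gene within 0.25, Fcrl1 2 and Bank1 3. These genes and Blk had the lowest marrow ratios of the members. By contrast, Btk had 208 genes within 0.25, Blnk 210, Plcg2 344, Fcrla 195 and Syk 659. These are likenesses over 2 ratios that share the B220+ array, and they are given as a description.

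The same comparisons were read for 171 other genes of the pathway, of which 149 had a named probe. These lists too were chosen with earlier results of these data known. For marrow Venus+ over B220+ cells, 68 of the 120 detected on both arrays were at least 2-fold lower and 11 higher, with a median log2 ratio of -1.20. For spleen Venus+ over B220+ cells, the numbers were 43 lower and 13 higher of 129, and the median was -0.38. For marrow over spleen Venus+ cells, they were 52 lower and 2 higher of 121, and the median was -0.82. Set beside these counts, the shares over all genes were 30.7% lower and 22.4% higher in the first comparison, 16.5% and 15.7% in the second, and 15.2% and 4.33% in the third; list counts below near these shares say nothing of the list. With normexp, 48 of the 79 pathway genes past 2-fold in the first comparison lay under 2-fold, 40 of 56 in the second and 42 of 54 in the third. Under every setting that gave a value, 28, 14 and 8 of them were past 2-fold. A ratio printed below without its normexp value is not thereby a stable one.

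Of the receptor itself, the Cd79a and Cd79b chains were measured here, and both had lower signals in Venus+ cells. The receptor and co-receptor list had 8 genes with a named probe, no immunoglobulin chain among them, and also held Cd40, Cd180, Ms4a1 and Ifitm1. Of the receptor and co-receptor genes, 6 of the 7 detected on both arrays were lower in marrow Venus+ than in B220+ cells and 1 higher, and 5 of 7 were lower in spleen Venus+ cells. Cd79a, whose tail Lyn and Blk phosphorylate, had signals of 159.4 in marrow Venus+ and 252.2 in spleen Venus+ cells, against 694.6 in B220+ cells. Its partner Cd79b had log2 ratios over B220+ cells of -2.13 in the marrow and -1.12 in the spleen. Cd81, a co-receptor subunit, was the higher one, at 1887 in marrow Venus+ cells, against 892.3 in B220+ cells (log2 ratio 1.08). Cr2, the complement receptor of the co-receptor complex, was not detected in either Venus+ population and was at least 43.2-fold lower in the marrow and at least 58.5-fold lower in the spleen than its signal of 101.6 in B220+ cells. Ms4a1, which encodes CD20, had log2 ratios over B220+ cells of -4.93 in the marrow and -1.95 in the spleen. Cd180, a Toll-like receptor homologue, was lower in the marrow (-1.37, and -0.37 with normexp) and had 0.51 in the spleen.

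Among the other kinases of these families, Tec, a relative of Btk, was low in the marrow array as Blk was. Tec had signals of 17.2 in marrow Venus+ and 158.4 in spleen Venus+ cells, against 264.2 in B220+ cells. Its marrow log2 ratios were -3.94 over B220+ and -3.20 over spleen Venus+ cells. Of the Src kinases other than Blk, 2 of 4 were lower in both Venus+ populations (Fyn, -3.22 in the marrow and -1.41 in the spleen, and Fgr, -2.10 and -1.32), and both lay under 2-fold with normexp. Yes1 was 1.05 higher on the log2 scale in spleen Venus+ than in B220+ cells. Fgr is a myeloid kinase, and the summed neutrophil markers given above were lower in both Venus+ populations as well. Their part was not tested.

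Other kinases of the protein kinase C family did not all follow Prkcb. In the marrow, 4 of the 6 detected on both arrays were lower than in B220+ cells, among them Prkd2 (-2.34) and Prkcd (-1.68), and 1 was higher, Prkcz (1.21). Prkcd, an isoform linked to B cell tolerance, had signals of 196.8 in marrow Venus+ and 552.8 in spleen Venus+ cells, against 630.2 in B220+ cells. Prkcq, the isoform known for signalling in T cells, had signals of 61.4 in marrow Venus+ and 34.9 in spleen Venus+ cells and was not detected in B220+ cells, so it was at least 45.7-fold and at least 26.0-fold higher. Prkcz, an atypical isoform, was higher in both Venus+ populations, by 1.21 in the marrow and 2.42 in the spleen on the log2 scale. With normexp the values were 0.08 and 0.16, both under 2-fold. Summed T cell markers were also higher in both Venus+ populations, most of the sum coming from Cd247. Of the 6 detected in B220+ cells, 4 were at least 2-fold higher in the marrow and 3 in the spleen, and none was 2-fold lower. The other 3 were detected in Venus+ cells only. The part of T cell markers in the signal of Prkcq was not tested.

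Of the phospholipase C genes, 4 of 9 were detected on both arrays in either comparison with B220+ cells. Plcb2, an isoform of blood cells, was lower in both Venus+ populations (-3.57 in the marrow and -2.09 in the spleen, and -0.90 and -0.48 with normexp). Plcd3 was higher in both, at 38.2 in marrow Venus+ and 48.3 in spleen Venus+ cells, against 3.87 in B220+ cells (log2 ratios of 3.30 and 3.64, and 0.35 and 0.68 with normexp). Plcg1, the close relative of Plcg2 used by T cells, was not detected on any of the 3 arrays.

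Of the other adaptors, 7 of 16 were lower and 2 higher in marrow Venus+ than in B220+ cells, and 6 of 18 lower and 1 higher in spleen Venus+ cells. Stap1, an adaptor phosphorylated by Tec, had signals of 31.8 in marrow Venus+ and 69.8 in spleen Venus+ cells, against 510.2 in B220+ cells (-4.01 and -2.87). Dapp1, which binds lipids made by PI3K, had log2 ratios of -3.79 in the marrow and -2.05 in the spleen. Sit1, a transmembrane adaptor of lymphocytes, was not detected in marrow Venus+ cells, at least 19.7-fold lower than in B220+ cells. It had -4.08 in spleen Venus+ cells (-0.38 with normexp). Grap, a relative of Grb2, resembled Plcg2 in its order, at 146.4 in marrow Venus+ and 421.5 in spleen Venus+ cells, against 447.8 in B220+ cells. Dok3, which restrains receptor signalling, was 1.03 higher on the log2 scale in spleen Venus+ than in B220+ cells and had 0.44 in the marrow. Of the adaptors better known from T cells, which did not move one way, Sla2 had log2 ratios of 1.83 in the marrow and 0.79 in the spleen over B220+ cells, Lcp2 had 1.02 and 0.69, Lat had 0.58 and 0.81, and Grap2 had -0.44 and -0.66.

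Among relatives of Fcrl1 and Fcrla, Fcrl5 was seen in the spleen. Fcrl5, in mouse a receptor of marginal zone and B-1 B cells, had a signal of 55.5 in spleen Venus+ cells, against 2.98 in B220+ cells (log2 ratio 4.22, and 0.01 with normexp), and was not detected in marrow Venus+ cells, at least 23.6-fold lower than in spleen Venus+ cells. Fcmr had signals of 219.1 in marrow Venus+ cells, 3418 in spleen Venus+ cells and 3011 in B220+ cells. Fcgr2b, the inhibitory IgG receptor of B cells, did not pass 2-fold (-0.88 in the marrow and -0.98 in the spleen). Fcer2a, which encodes CD23, was 1.41 higher on the log2 scale in marrow than in spleen Venus+ cells, though lower than in B220+ cells in both (-1.08 and -2.48), the marrow value lying under 2-fold in 5 of 8 other settings (up to -0.36). Fcgr3, a myeloid receptor, was lower in both Venus+ populations (-1.80 and -2.46, and -0.20 and -0.32 with normexp), as the summed neutrophil markers were. The part of neutrophils in it was not tested.

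**Figure D3:**
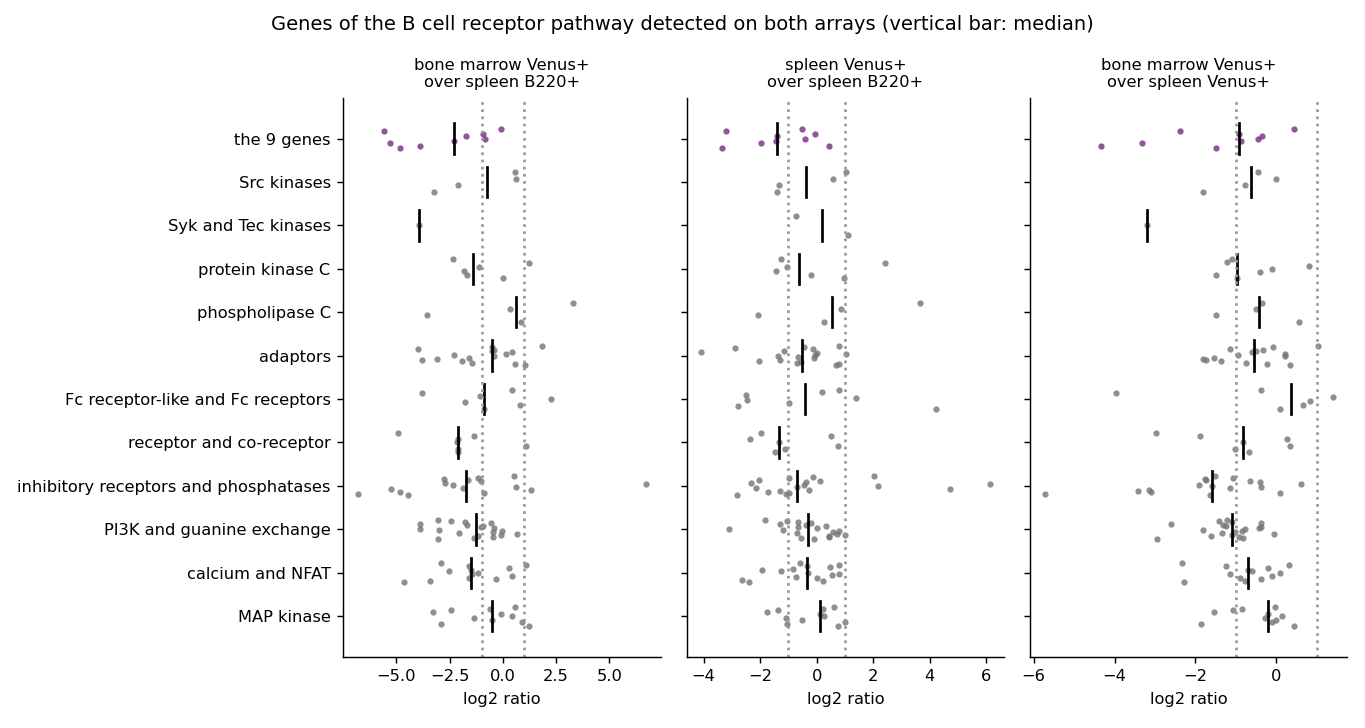
Log2 ratios of the 9 genes (purple) and of other pathway genes detected on both arrays (grey), for the lists described here, with the median of each list as a vertical bar and 2-fold as dotted lines, for the 3 comparisons; the x axes differ in range. The medians of the 9 genes lie at -2.31, -1.39 and -0.91, and those of the receptor and inhibitory lists lie on the same side of 0 in each panel.

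Genes listed as inhibitory receptors and phosphatases of the pathway were mostly lower in marrow Venus+ cells. The list includes Ptprc, which encodes CD45 and so B220 (-2.71 in the marrow and -2.31 in the spleen over B220+ cells). Whether each gene of the list restrains the pathway was not tested. Of this list, 11 of 16 genes were lower and 2 higher in marrow Venus+ than in B220+ cells, 7 of 19 lower and 4 higher in spleen Venus+ cells, and 12 of 17 lower and 0 higher in marrow than in spleen Venus+ cells. Cd72, an inhibitory B cell lectin, had signals of 8.17 in marrow Venus+ and 434.2 in spleen Venus+ cells, against 918.5 in B220+ cells. The marrow array was the low one, with log2 ratios of -6.81 over B220+ cells and -5.73 over spleen Venus+ cells. Siglecg had -4.82 in the marrow and -1.73 in the spleen over B220+ cells, and Pecam1 had -5.28 and -2.14. Cd22, a target of Lyn, had -4.45 in the marrow and -2.81 in the spleen. Inppl1, a lipid phosphatase that opposes PI3K, was higher, at 22136 in marrow Venus+ and 14536 in spleen Venus+ cells, against 208.9 in B220+ cells (log2 ratios of 6.73 and 6.12). Cd5, known from T cells and B-1 B cells, had signals of 7.71 in marrow Venus+ and 82.9 in spleen Venus+ cells, against 3.13 in B220+ cells, and Ptpn22 had 152.0 and 458.2, against 100.8; both are also T cell genes, and the part of the T cell markers in them was not tested.

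Downstream of the receptor, 3 lists had median log2 ratios for marrow Venus+ over B220+ cells of -1.27 (PI3K and guanine exchange), -1.51 (calcium and NFAT) and -0.53 (MAP kinase), against -0.24 over all genes. Of the PI3K and guanine exchange genes, 12 of 20 were lower and 0 higher in marrow Venus+ than in B220+ cells, and 12 of 20 lower than in spleen Venus+ cells. Pik3cd, the lymphocyte form of the PI3K catalytic subunit, had signals of 5.66 in marrow Venus+ and 43.6 in spleen Venus+ cells, against 46.5 in B220+ cells. Its marrow log2 ratio over B220+ cells was -3.04, and -0.39 with normexp. Rasgrp2 had -3.89 in the marrow and -3.11 in the spleen over B220+ cells, but 0.79 and 0.73 with normexp. Of the calcium and NFAT genes, 9 of 13 were lower and 1 higher in the marrow, and 4 of 15 lower in the spleen. Of the calcium channels of internal stores, the family that Bank1 binds, Itpr3 had signals of 72.1 in marrow Venus+ and 122.2 in spleen Venus+ cells, against 770.1 in B220+ cells, and Itpr1 had log2 ratios of -4.65 in the marrow and -2.38 in the spleen (-0.39 and -0.55 with normexp). Itpr2 was not detected in marrow Venus+ cells and had 4.85 in spleen Venus+ cells, against 4.13 in B220+ cells. Nfatc2 was the higher one (1.10), and its sign turned with normexp and with the local background subtracted. Of the MAP kinase genes, 4 of 11 were lower and 1 higher in the marrow, a share close to the 30.7% of all genes that were lower there, and 4 of 11 were lower in the spleen. Nras had -2.92 in the marrow and Hras 1.21. Mapk8 had -3.28 in the marrow, a sign that turned with either other background.

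**Figure D4:**
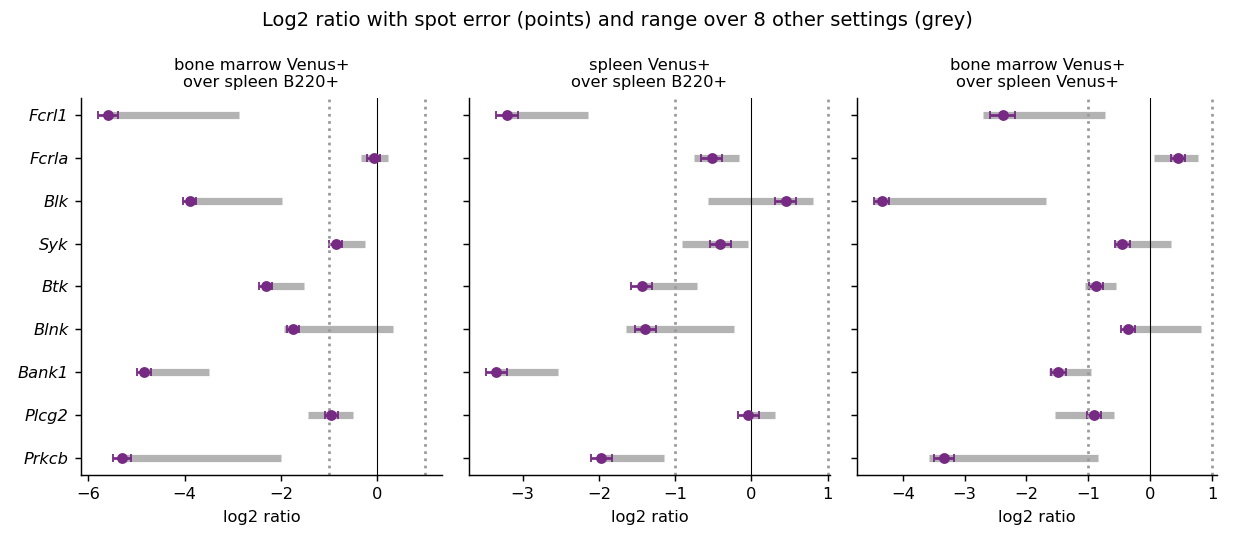
Log2 ratio of each of the 9 genes (points, with the spot error as bars) and its range over 8 other processing settings (grey) in the 3 comparisons; dotted lines mark 2-fold. The marrow ranges of Fcrl1, Prkcb, Bank1, Blk and Btk over B220+ cells stay left of the 2-fold line, that of Blnk crosses 0 (-1.93 to 0.33), and that of Blk in the spleen comparison crosses 0 (-0.57 to 0.81).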

How the data were processed

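Total RNA of 3 sorted populations, 1 array each, was labelled with Cy5 and hybridized to a Toray 3D-Gene mouse array, per the labels' protocols. The authors deposited scanner files that hold, per the file headers, the median intensity and the local background intensity of each spot and also a table of normalized intensity. The authors, by the design text of the series, had subtracted a blank-spot mean and brought the detected median to 25. For the blank spots the design text names an interval of 95%. A recipe close to the authors' was applied here to the scanner files (blank mean over the middle 90% of 2736 blank spots, detection at that mean plus 2 SD). It gave the table's detection call for every probe, and values of 10 or more differed from it by at most 4.05%. Detection began at spot medians of 43.7 in marrow Venus+, 42.7 in spleen Venus+ and 46.2 in B220+ cells. Precision is limited by the number of arrays.

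Names came from GEO's platform annotation (16631 of 23473 probes had 1 symbol, 6842 none), and 3947 older symbols were updated through the RefSeq gene table of GRCm38.p6. The highest probe stood for a gene with several. A gene detected on 1 array of a comparison has a lower bound only. No test was made, and 1 array per population allows none. The text names all members. Other genes were eligible if of a member's family, among the 3 highest or 3 lowest of a list, or 1-array genes with a bound of at least 2-fold; some of these are printed, picked after their values were seen. A list that enters the pathway totals is not reported on its own here. The members and lists were chosen with earlier results of these data known. The 8 other settings tried were the authors' deposited intensity values, normexp (limma 3.58.1, R 4.3.3, offset 50), the local background subtracted, scaling to probes detected on all 3 arrays, quantile normalization, a detection limit at 3 SD, a blank level from spots without a probe, and the lowest probe of a gene. The script was tested on simulated data.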

Additional observations from a re-analysis of the deposited data

Results flagged for a closer look

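Blk was lower in marrow Venus+ than in B220+ cells (log2 ratio -3.89) and had a log2 ratio of 0.45 in spleen Venus+ over B220+ cells, so the Venus+ populations lay on opposite sides of the B220+ cells; the difference was not tested. The spleen direction turned with normexp and with the local background subtracted, which both use the recorded local background.

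Cd180 was lower in marrow Venus+ than in B220+ cells (-1.37) and had a log2 ratio of 0.51, under 2-fold, in spleen Venus+ cells. With normexp the marrow ratio was -0.37, also under 2-fold. The difference between the Venus+ populations was not tested either.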

How the results depend on the processing

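Over 384 recomputed values, 223 were labelled the same, 147 moved and 14 reversed. Ratios of single pathway genes entered this total only where they reversed under at least 1 setting. The number reversed is therefore not a rate of reversal. A ratio was the same if it moved by less than the spot error, and a count if its relative change was small. Only ratios at least 2-fold in the main setting could be labelled reversed, so sign changes of smaller ratios fall under the other 2 labels. The members at least 2-fold lower in marrow Venus+ than in B220+ cells numbered 6 under all 8 settings, though with normexp and with the local background subtracted Blnk dropped out and Plcg2 came in. With normexp the members' median was -1.51 for marrow Venus+ over B220+ cells and -0.29 for spleen Venus+ over B220+ cells, 3 members were lower in spleen Venus+ than in B220+ cells and 2 in marrow than in spleen Venus+ cells, and the pathway counts were 30 lower and 1 higher, 18 lower and 2 higher, and 14 lower and 0 higher in the 3 comparisons. With the local background subtracted, the members' median was -0.91 for spleen Venus+ over B220+ cells and -1.33 for marrow over spleen Venus+ cells, where 10 pathway genes were higher. Scaled to probes detected on all 3 arrays, it was -2.02 for marrow Venus+ over B220+ cells and -0.58 for marrow over spleen Venus+ cells (5 pathway genes higher). With quantile normalization it was -1.93, -1.17 and -0.74 in the 3 comparisons (5 pathway genes higher in the last). With the blank level from spots without a probe it was -2.06 and -1.03 over B220+ cells, with 27 pathway genes lower and 29 higher in spleen Venus+ cells, and 1 higher in marrow than in spleen Venus+ cells. The cause of these shifts was not tested.

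Of all pathway genes past 2-fold, 9, 7 and 6 changed sign under at least 1 setting in the 3 comparisons. Among the members and the genes followed singly, the signs of ratios past 2-fold turned as follows. Ratios under 2-fold that turned are not listed. Among the members these were Fcrla in the marrow and Blk and Plcg2 in the spleen over B220+ cells, and Syk and Blnk in marrow over spleen Venus+ cells. With normexp, in the marrow and then the spleen over B220+ cells, Prkci was at 0.123 and 0.0802 and Rasgrp2 at 0.792 and 0.729; Nfatc2 was at -0.0757 and Mapk8 at 0.0829 in the marrow. In marrow over spleen Venus+ cells Itpr1 was at 0.152 and Mapk8 at 0.106. With the local background subtracted, Blnk was at 0.33, Nfatc2 at -0.50 and Mapk8 at 4.58 in the marrow and Mapk8 at 4.74 in the spleen over B220+ cells; in marrow over spleen Venus+ cells Sla2 was at -0.49 and Itpr1 at 0.80.

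Of all genes past 2-fold, the share that was higher was 42.2% for marrow Venus+ over B220+ cells, 48.8% for spleen Venus+ over B220+ cells and 22.2% for marrow over spleen Venus+ cells. It was 53.9% in the first and 57.7% in the last when scaled to common probes, 49.8% in the last with quantile normalization, 23.8% in the first with normexp, and 72.7% in the second with the blank level from spots without a probe. No paired analysis was possible because each population has 1 array. Dim probes limit the ratios: the lowest detected signal was 2.35 in marrow Venus+, 1.74 in spleen Venus+ and 1.34 in B220+ cells.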

Other observations

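A pair of genes for signalling chains of other receptors, chosen after their values were seen, was higher in Venus+ cells. Cd247, the zeta chain of the T cell receptor and of some Fc receptors, had signals of 1038 in marrow Venus+ and 637.0 in spleen Venus+ cells, against 15.7 in B220+ cells (log2 ratios of 6.05 and 5.35). Fcer1g, the common gamma chain of Fc receptors, had signals of 165.1 in marrow Venus+ and 91.6 in spleen Venus+ cells, against 34.9 in B220+ cells (2.24 and 1.39, and 0.19 and 0.69 with normexp). Zap70, the relative of Syk that docks on Cd247, was not detected in marrow Venus+ cells and had 7.46 in spleen Venus+ cells, against 3.47 in B220+ cells. Cd3e had 17.8 in marrow Venus+ and 7.55 in spleen Venus+ cells and was not detected in B220+ cells, and Fcer1a was not detected on any array. Cd247 made up most of the summed T cell marker signal in both Venus+ populations.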
